A study of Mus musculus with 24 samples.

Results

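The response of the BALB/c mammary gland to low-dose ionizing radiation (LDIR) was set side by side at 4 and 8 weeks after exposure, to find which transcripts turned direction between both times and whether the sham or the irradiated glands carried the turn. The measure was a contrast on the log2 scale: LDIR minus sham at 4 weeks, less LDIR minus sham at 8 weeks. A positive (higher) contrast means that the LDIR difference was more positive at 4 weeks than at 8 weeks, and a negative (lower) contrast the opposite. It used 12 of the 24 arrays of the series, in 4 groups of 3: sham and LDIR glands at 4 weeks and sham and LDIR glands at 8 weeks. All were mammary glands of female BALB/c mice, and the LDIR mice had received a single whole-body X-ray dose of 10 cGy at 8-9 weeks of age. The sham mice had the same age and times. BALB/c is an inbred strain with reduced activity of a DNA double-strand break repair kinase, and no gene was altered on purpose in any group. Of 55681 probes on the array, 32397 were well above background on all 12 arrays and were tested; 25792 of these were coding RNA probes, which stood for 19922 named genes by the brightest probe of each, and 6605 were long noncoding RNA (lncRNA) probes. The genes described below were chosen by the measured contrast itself, so their contrasts, changes and standard errors are descriptions of these 12 arrays and not tests.

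Background to the genes concerned is as follows. Immediate early genes such as Fosb, Atf3, Jun and Nr4a1 encode transcription factors that are made within minutes of growth signals, stress or tissue handling and fade soon after. Macrophages of the mammary stroma make complement C1q, Fc receptors and chemokines, the small proteins that draw leukocytes, and take part in ductal growth and in clearing dying cells. The adult gland also changes with each estrous cycle through estrogen and progesterone, and holds fat, vessels, nerve, epithelium and often a lymph node; the estrous stage of these mice was not given in the sources used here.

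The samples were checked first. On each of the 12 arrays, 65.6% to 72.6% of all probes passed the background test, no spot was saturated, and 23 of 24 luminal epithelial, 17 of 18 basal and 26 of 26 white adipocyte markers were among the tested probes. Sham A and LDIR B of 8 weeks stood apart. Of 29 tested T and NK lymphocyte markers, 27 were higher on both than on any of the other 10 arrays, as were 13 of 14 B lymphocyte markers and 10 of 10 MHC class II genes, while 21 of 26 white adipocyte markers were lower on both than on the other 10. The mean level of the T and NK list was 2.19 on 8-week sham A and 2.43 on 8-week LDIR B, against -2.37 to -1.45 on the other 10 arrays; levels are log2 intensity relative to the 75th percentile of the array. In whole glands, more cells of a type and more RNA per cell cannot be told apart. One such array lay in each 8-week group. For the lists described below, the counts that changed without both are given beside the counts with them. Counts with both are to be read against 2.74% higher and 0.843% lower of all coding genes, and counts without both against 3.57% and 3.61%. Lists not described below changed too. Without both, 3 Schwann cell and nerve genes were higher and 1 lower, and 2 mast cell genes and 1 erythrocyte gene were higher. Among antioxidants and NRF2 targets, and in fatty acid and cholesterol synthesis, 1 gene each was lower. With both arrays these counts were 0. Of the genes named by rule, Cxcl15 and Cish did not pass without both. The arrays also lay on 3 slides. Slide 2 held 8 of them, but sham A and B of 4 weeks were on slide 1 and LDIR B and C of 8 weeks on slide 3, so that within slide 2 the contrast rests on 1 sham array at 4 weeks and 1 LDIR array at 8 weeks. A fit with slide as a fixed block takes its contrast from the same slide 2 arrays, so it and slide 2 alone are not separate checks. The methods of the study call the 3 samples of a group biological replicates; whether each was 1 animal or a pool is not given in the sources used here.

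By the thresholds of the study's methods (unadjusted p under 0.05 and over 1.5-fold, here in limma), 1064 probes had a higher contrast (3.28% of those tested) and 267 a lower one (0.824%). For lncRNA probes the shares were 5.62% higher and 0.651% lower, and for coding probes 2.69% and 0.868%. The balance depended on the setting: 79.9% of the probes past the thresholds were higher here, but 48.3% after quantile normalization, 47.2% without the lymphocyte-rich arrays, 50.1% with slide as a fixed block and 45.1% within slide 2. This share was 74.7% with arrays scaled to the median of the tested probes and 63.1% with normexp background correction. Slide as a random block gave 1019 higher and 265 lower. In all, 1375 probes, or 4.24%, had an unadjusted p under 0.05, and after Benjamini-Hochberg adjustment over all tested probes in limma 0 had an adjusted p under 0.05, the smallest being 0.99997. Thus no single probe below is established as changed, and those named are the extremes of a ranking. The change had opposite signs at both times in 1295 of the 1331 probes past the thresholds: 1038 were up after LDIR at 4 weeks and down at 8 weeks, and 257 the reverse. With over 1.5-fold required at each time, 146 and 37 remained. Ccl4 at -1.42 lay just inside the p threshold and Msl1 at -0.60 just outside it.

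**Figure D1:**
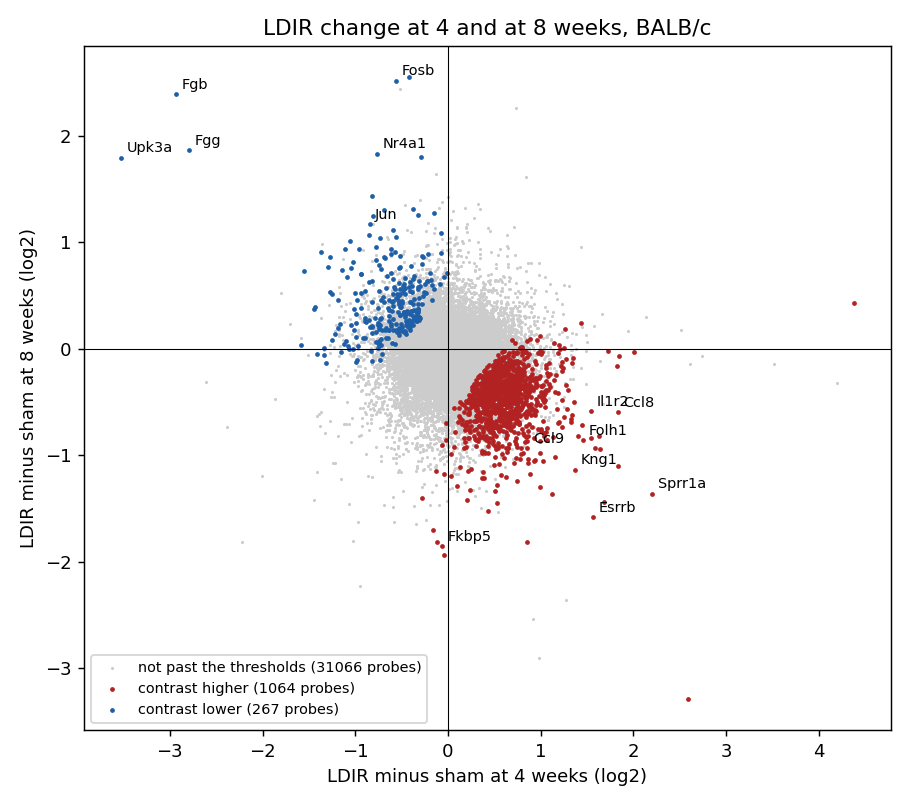
LDIR minus sham at 4 weeks (horizontal axis, log2) against LDIR minus sham at 8 weeks (vertical axis, log2) for the 32397 tested probes, with the 1064 higher-contrast probes in red and the 267 lower-contrast probes in blue. Red points fill the lower right quadrant (up at 4 weeks, down at 8 weeks) and blue points the upper left, since the contrast selects them; Fosb and Nr4a1 sit far up at 8 weeks, and Fgb, Fgg and Upk3a are displaced on both axes.

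The balance of directions depended on scaling and on single arrays. The median contrast over all tested probes was 0.07. With quantile normalization, 520 probes were higher and 557 lower, and without the 2 lymphocyte-rich arrays 1074 were higher and 1201 lower, so that 79.9% of calls were higher in the whole set, 48.3% after quantile normalization and 47.2% without both arrays. Of the original calls, 513 higher and 238 lower ones also passed without both arrays. With slide as a fixed block 235 were higher and 234 lower, of which 73 and 91 were among the original calls, and 115 of the 1064 had the opposite sign.

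Which arrays carried the turn was read by splitting the contrast into a sham part (sham at 8 weeks minus sham at 4 weeks) and an LDIR part (LDIR at 4 weeks minus LDIR at 8 weeks), which sum to it. The sham share of the contrast had a median of 0.31 for higher-contrast probes and 0.77 for lower-contrast probes. Over all tested probes with a contrast over 1.5-fold in either direction, whatever the p, the median was 0.33, near that of the higher-contrast probes. Of the 1038 that were up at 4 weeks and down at 8 weeks, the LDIR arrays carried over 2/3 of the contrast in 560, the sham arrays over 2/3 in 173, and both took part in 305. For the 257 of the reverse direction the order was turned, with 74 carried by LDIR arrays, 143 by sham arrays and 40 by both. Without the 2 lymphocyte-rich arrays the medians became 0.53 and 0.94. With slide as a fixed block they were 0.69 and 0.46, so which arrays carried the turn was not settled for the whole set. A change that came with time alone cancels from the contrast but not from its parts, and over all tested probes the median sham part was -0.07 and the median LDIR part 0.20.

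**Figure D2:**
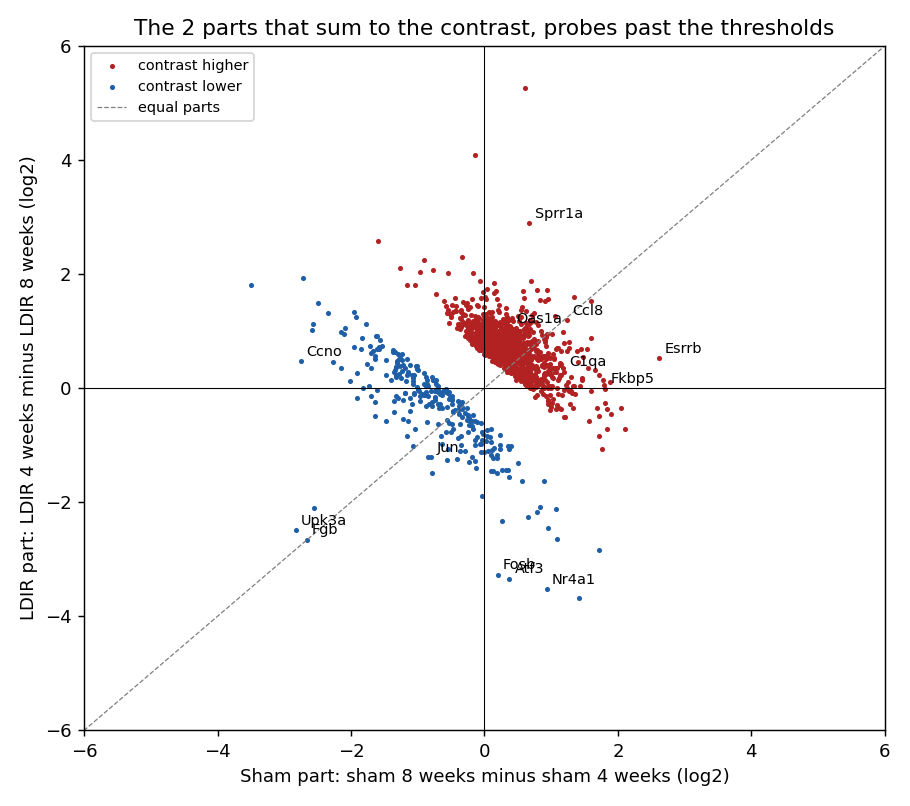
The sham part (horizontal axis, log2) and the LDIR part (vertical axis, log2) of the contrast for the 1331 probes past the thresholds, red for higher and blue for lower contrasts; the dashed line marks equal parts. Fosb and Atf3 lie near the vertical axis (LDIR part of -3.27 and -3.34). Nr4a1 (LDIR part of -3.53) lies to the right of that axis, with a positive sham part. Fgb and Upk3a lie near the line of equal parts, and Fkbp5 and Esrrb far along the sham part.

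Immediate early genes were the gene list in which the most members had a lower contrast. Of 35 tested members, 9 were lower and 0 higher, 25.7% against 0.843% of all coding genes (2.74% were higher), with a median contrast of -0.79 against 0.02 over all coding genes. All 9 turned: Fosb, Atf3, Nr4a1, Jun, Btg2, Ier2, Csrnp1, Socs3 and Jund were below sham at 4 weeks and above sham at 8 weeks. The median sham part of the list was 0.71 and the median LDIR part -1.62, so the levels were higher at 8 than at 4 weeks in both arms and the LDIR arrays differed more between times.

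Fosb, a partner of Jun in the AP-1 transcription factor, had the lowest contrast of the list (-3.08, SE 0.85; probe at chr7:19888168-19888227, minus strand, mm9). At 4 weeks its level was -1.57, -0.92 and -0.32 in sham A to C and -1.46, -1.81 and -1.23 in LDIR A to C. At 8 weeks it was -1.33, -0.36 and -0.54 in sham and 3.42, 0.60 and 1.31 in LDIR. The 3 LDIR glands at 8 weeks lay above every other array, LDIR A by the most, and the 4-week groups overlapped. Its change was -0.56 at 4 weeks and 2.52 at 8 weeks, and the sham part was only 0.20.

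Atf3, a stress-induced transcription factor, had a like pattern. Its level at 4 weeks was -1.58, -1.15 and -0.77 in sham and -1.62, -1.89 and -1.24 in LDIR. At 8 weeks it was -1.84, 0.17 and -0.72 in sham and 3.42, 0.58 and 1.27 in LDIR, and only the 8-week groups did not overlap, with a contrast of -2.97 (SE 0.93). Nr4a1, an orphan nuclear receptor, stood at 0.73, 2.55 and 2.75 in sham and 1.60, 0.68 and 1.47 in LDIR at 4 weeks. Its 8-week levels were 2.75, 3.22 and 2.86 in sham and 5.29, 4.06 and 4.97 in LDIR, and again the 8-week groups did not overlap while the 4-week groups did; the contrast was -2.59 (SE 0.71).

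Jun, the partner of the Fos proteins in AP-1, was 4.18, 4.06 and 4.69 in sham and 3.80, 2.95 and 3.65 in LDIR at 4 weeks, with every LDIR array below every sham array. At 8 weeks it was 2.64, 3.95 and 3.94 in sham and 5.43, 3.77 and 4.85 in LDIR, where LDIR B lay below 2 sham arrays; the contrast was -2.01 (SE 0.64), with parts of -0.80 from sham and -1.21 from LDIR. Socs3, an inhibitor of cytokine signalling, had a contrast of -1.09, and Ier2 of -1.55. Fos itself, with a contrast of -2.96 (SE 1.35), just missed the p threshold. Egr1 (-1.05), Dusp1 (-0.91), Zfp36 (-0.90) and Cyr61 (-0.79) had negative contrasts that did not pass, while Myc (0.26) and Egr2 (0.42) were positive; in all 32 of the 35 members were negative. Without the lymphocyte-rich arrays 13 of the 35 members were lower past the thresholds, against 3.61% of all coding genes. The slide block and slide 2 alone cannot serve as separate checks of this list. Both rest on LDIR A as the only 8-week LDIR array, and it was the highest of the 8-week LDIR arrays for Fosb, Atf3, Nr4a1 and Jun.

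Apold1, an early response gene of vascular endothelium, had a contrast of -2.25 (SE 0.84) and lay close to this list in pattern: -2.36, -0.85 and -1.06 in sham and -2.08, -2.77 and -1.90 in LDIR at 4 weeks, then -0.30, -0.37 and 0.65 in sham and 2.26, -0.02 and 2.04 in LDIR at 8 weeks. The 8-week groups overlapped through LDIR B. A second probe of the gene gave -2.06. Btg2 and Plk3, both p53-responsive genes that restrain growth, were the members past the thresholds among 32 tested p53 targets (median contrast -0.24). Both were lower, 6.25% of the list against 0.843% of coding genes. Without the lymphocyte-rich arrays 1 was higher and 5 lower. Plk3 levels were 0.69, 1.49 and 1.1 in sham and 0.21, 0.69 and 0.41 in LDIR at 4 weeks, and 0.72, 0.31 and 0.54 in sham and 1.55, 0.91 and 1.14 in LDIR at 8 weeks, so the groups lay apart at both times, if only just at 4 weeks. Its contrast of -1.34 (SE 0.35) came in like measure from both arms (sham part -0.58, LDIR part -0.76).

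In the promoter of Btg2 the letters of the cyclic AMP response element (CRE, TGACGTCA, searched on both strands) occurred once, at 166 bases before the start site, and are in capitals in the 250 upstream bases shown because Btg2 was the only one of 8 lower-contrast members with a promoter in the table that held this motif (RefSeq, GRCm38.p6, chr1:134079156-134079405, minus strand). The motif was in 1.55% of 32851 RefSeq promoters of this length and in 3 of the 27 immediate early promoters found. A match is a description of letters only.
Btg2: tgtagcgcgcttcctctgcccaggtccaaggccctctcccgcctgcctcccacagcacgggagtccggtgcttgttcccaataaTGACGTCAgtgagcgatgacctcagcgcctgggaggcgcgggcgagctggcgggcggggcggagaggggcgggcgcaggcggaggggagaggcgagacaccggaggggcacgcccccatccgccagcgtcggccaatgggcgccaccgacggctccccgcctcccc

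**Figure D3:**
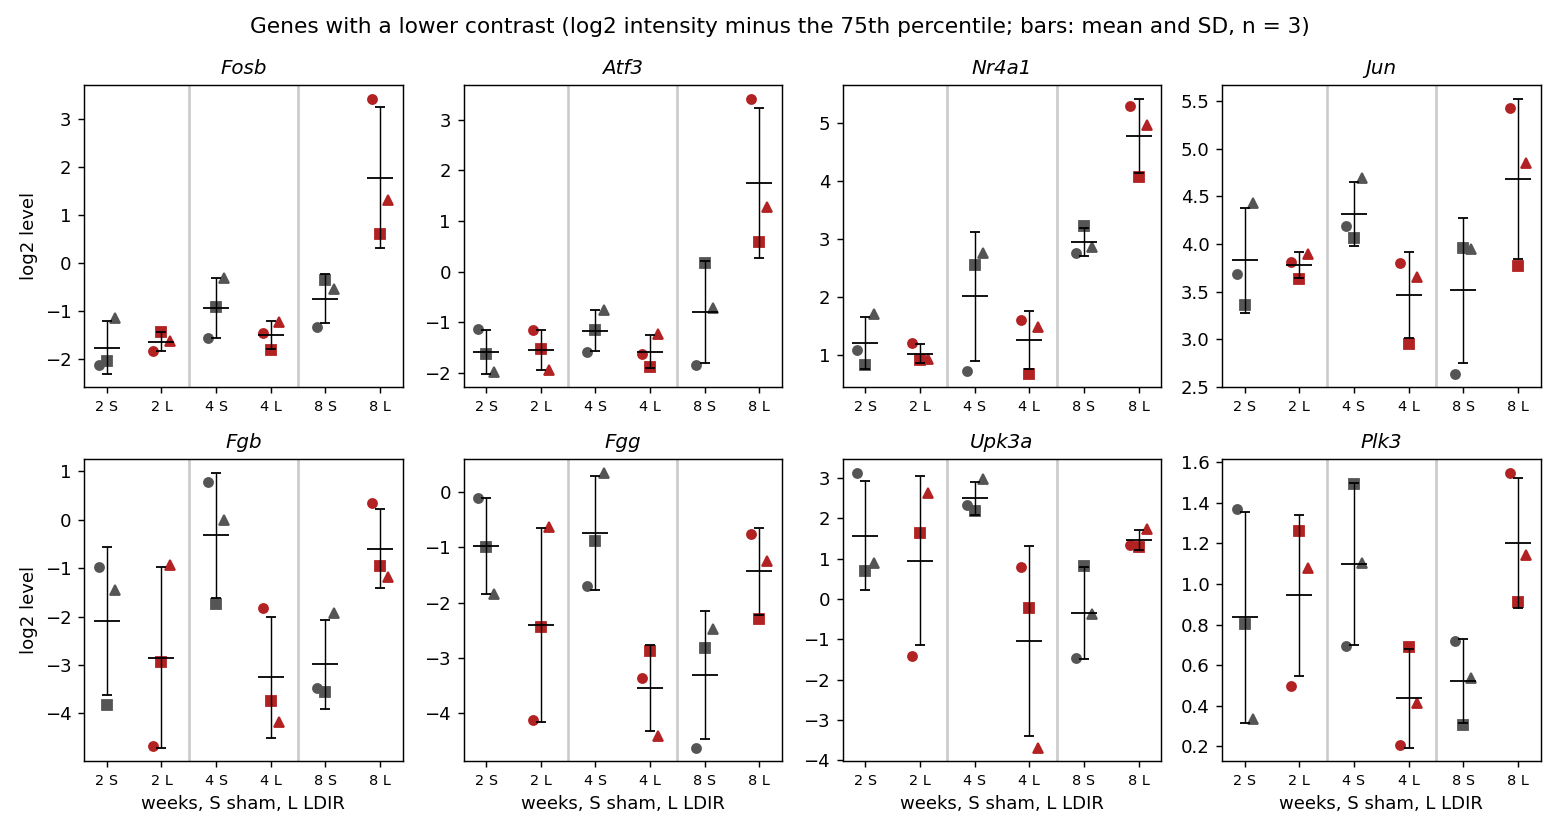
Levels (log2 intensity relative to the 75th percentile of the array) of 8 genes with a lower contrast on the 18 BALB/c arrays at 2, 4 and 8 weeks, sham (S) in grey and LDIR (L) in red; circles, squares and triangles are replicates A, B and C and bars give mean and SD (n = 3). The 3 LDIR arrays of Fosb, Atf3 and Nr4a1 at 8 weeks stand above all other groups, and Fgb, Fgg and Upk3a are low in LDIR at 4 weeks and in sham at 8 weeks.

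The lowest contrasts of all were shared by both arms. Fgb and Fgg encode the beta and gamma chains of fibrinogen, the clotting protein of plasma. Fgb levels at 4 weeks were 0.78, -1.74 and 0.00 in sham and -1.83, -3.75 and -4.19 in LDIR; at 8 weeks they were -3.48, -3.55 and -1.93 in sham and 0.34, -0.96 and -1.17 in LDIR. The groups did not overlap at either time and the order turned. Its contrast was -5.32 (SE 1.08), from a change of -2.93 at 4 weeks and 2.39 at 8 weeks, with the parts near equal (-2.67 sham, -2.66 LDIR). Fgg behaved alike, at -1.71, -0.89 and 0.34 in sham and -3.36, -2.88 and -4.40 in LDIR at 4 weeks, and -4.62, -2.81 and -2.48 in sham and -0.76, -2.30 and -1.26 in LDIR at 8 weeks, for a contrast of -4.66 (SE 0.95). Both genes lie together on chromosome 3 (mm9 probes at chr3:82846334-82846393 and chr3:82818825-82818884).

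Upk3a, a membrane protein of urothelium, was 2.34, 2.18 and 2.96 in sham and 0.79, -0.22 and -3.69 in LDIR at 4 weeks, and -1.47, 0.81 and -0.36 in sham and 1.35, 1.29 and 1.74 in LDIR at 8 weeks. LDIR C at 4 weeks lay far below the rest, but the groups were apart without it too (contrast -5.32, SE 1.31). Over all tested probes, the groups lay apart at both times in 79 that were up at 4 weeks and down at 8 (0.244%) and in 28 of the reverse direction (0.0864%), among them Fgb, Fgg, Upk3a and Plk3. With 3 arrays in a group, such separation can also arise without any difference between groups. Itih4, a plasma protein of the acute phase (-1.82, and -1.15 by a second probe that did not pass), and Reg3g, an antimicrobial lectin (-2.09), also had lower contrasts. Of 23 tested acute phase and mucosal defence genes 4 were lower and 1, Wfdc12 at 1.75, was higher. These were 17.4% and 4.35%, against 0.843% and 2.74% of coding genes. The list as a whole did not lean one way, with 12 positive and 11 negative contrasts; without the lymphocyte-rich arrays 3 were higher and 5 lower. Cyclin O (Ccno, contrast -2.28) was carried by the sham arrays, which read -1.13, 0.06 and -1.49 at 4 weeks and -3.60, -3.86 and -3.35 at 8 weeks. The LDIR arrays read -3.15, -2.02 and -2.05 at 4 weeks and -2.12, -4.11 and -2.39 at 8 weeks.

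Macrophages engulf debris and dying cells, and complement and Fc receptor genes are among their markers. Of 32 tested macrophage and myeloid genes, 9 had a higher contrast and 1 a lower one (28.1% higher against 2.74% of coding genes), with a median contrast of 0.90, and 27 of 32 were positive. Those past the thresholds were the complement genes C1qa, C1qb and C1qc, the Fc receptor genes Fcgr1, Fcgr2b, Fcgr3 and Fcer1g, the mannose receptor Mrc1 and Cd68, while the fractalkine receptor Cx3cr1 was lower (-1.08). The median change was 0.69 at 4 weeks and -0.11 at 8 weeks. The median sham part of the list was 0.85 and the median LDIR part 0.04, so the sham arrays differed more between times. The mean level of the list was 0.96, 0.56 and 0.84 in sham and 1.41, 1.31 and 1.16 in LDIR at 4 weeks, without overlap, and 1.47 and 1.22 in sham B and C against 1.31 and 0.89 in LDIR A and C at 8 weeks. The lymphocyte-rich 8-week arrays read 1.93 (sham A) and 1.94 (LDIR B). Without both, 17 members were higher and 1 lower, against 3.57% higher and 3.61% lower of all coding genes. The list's median was 0.83 with slide as a fixed block. That fit rests on 1 sham array at 4 weeks and 1 LDIR array at 8 weeks, so which members passed in it decides nothing.

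C1qa, the A chain of the first complement component, was 2.65, 1.44 and 2.06 in sham and 3.58, 2.78 and 2.91 in LDIR at 4 weeks. It was 2.89, 3.41 and 3.42 in sham and 2.91, 2.91 and 2.61 in LDIR at 8 weeks, so LDIR was above sham on all arrays at 4 weeks and mostly below it at 8 weeks. Its contrast was 1.47 (SE 0.44), with the sham part (1.19) larger than the LDIR part (0.28). C1qb (1.24), C1qc (1.28), Fcgr3 (1.27) and Fcer1g (1.21) had like contrasts, and Fcgr1, the high-affinity IgG receptor, differed in being carried by the LDIR arrays (contrast 1.05, sham part 0.07).

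Among 41 tested chemokines and their receptors, 6 were higher (Ccl8, Cxcl15, Ccl6, Ccl9, Pf4 and Ccr3) and 3 lower (Ccl4, Cxcl9 and Cx3cr1), or 14.6% and 7.32% against 2.74% and 0.843% of coding genes. Without the lymphocyte-rich arrays 8 were higher and 7 lower, and the list's median was -0.03 with them and -0.01 without. Ccl8, a ligand of monocyte and T cell receptors made by macrophages, was 2.61, 1.95 and 2.33 in sham and 4.82, 3.39 and 4.18 in LDIR at 4 weeks, then 3.85, 3.49 and 3.27 in sham and 3.19, 3.00 and 2.63 in LDIR at 8 weeks. The groups did not overlap at either time. LDIR was higher by 1.83 at 4 weeks and lower by 0.60 at 8 weeks (change of -0.60), with parts of 1.24 from sham and 1.19 from LDIR (contrast 2.43, SE 0.47; probe at chr11:81930108-81930167, mm9). It stayed past the thresholds under each of the 13 other settings and the 12 leave-outs.

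Ccl6, Ccl9 and Ccl8 all lie in a chemokine region of chromosome 11. Ccl6 was 4.07, 3.32 and 3.70 in sham and 5.04, 4.33 and 4.85 in LDIR at 4 weeks, and 3.80, 4.60 and 4.79 in sham and 4.02, 3.11 and 3.60 in LDIR at 8 weeks. Ccl9 was 2.83, 1.94 and 2.21 in sham and 3.5, 2.83 and 3.23 in LDIR at 4 weeks, and 2.54, 3.18 and 3.24 in sham and 2.39, 1.73 and 2.05 in LDIR at 8 weeks. For Ccl9 the LDIR arrays were on the far side of all sham arrays at 8 weeks and overlapped them at 4 weeks only through sham A at the LDIR B value. The contrasts were 1.86 (SE 0.46) and 1.79 (SE 0.41), and LDIR carried the larger part of both (1.16 and 1.13). Of the interleukins, TNF family and receptors, 3 of 46 tested were higher, or 6.52% against 2.74% of coding genes. These were the decoy interleukin 1 receptor Il1r2 (2.13, apart at both times), Il22 (1.11) and Il4 (1.14). Il4 lay at levels of -5.06 to -3.18, near the dim end of the array. Without the lymphocyte-rich arrays 4 of the 46 were higher and 3 lower.

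**Figure D4:**
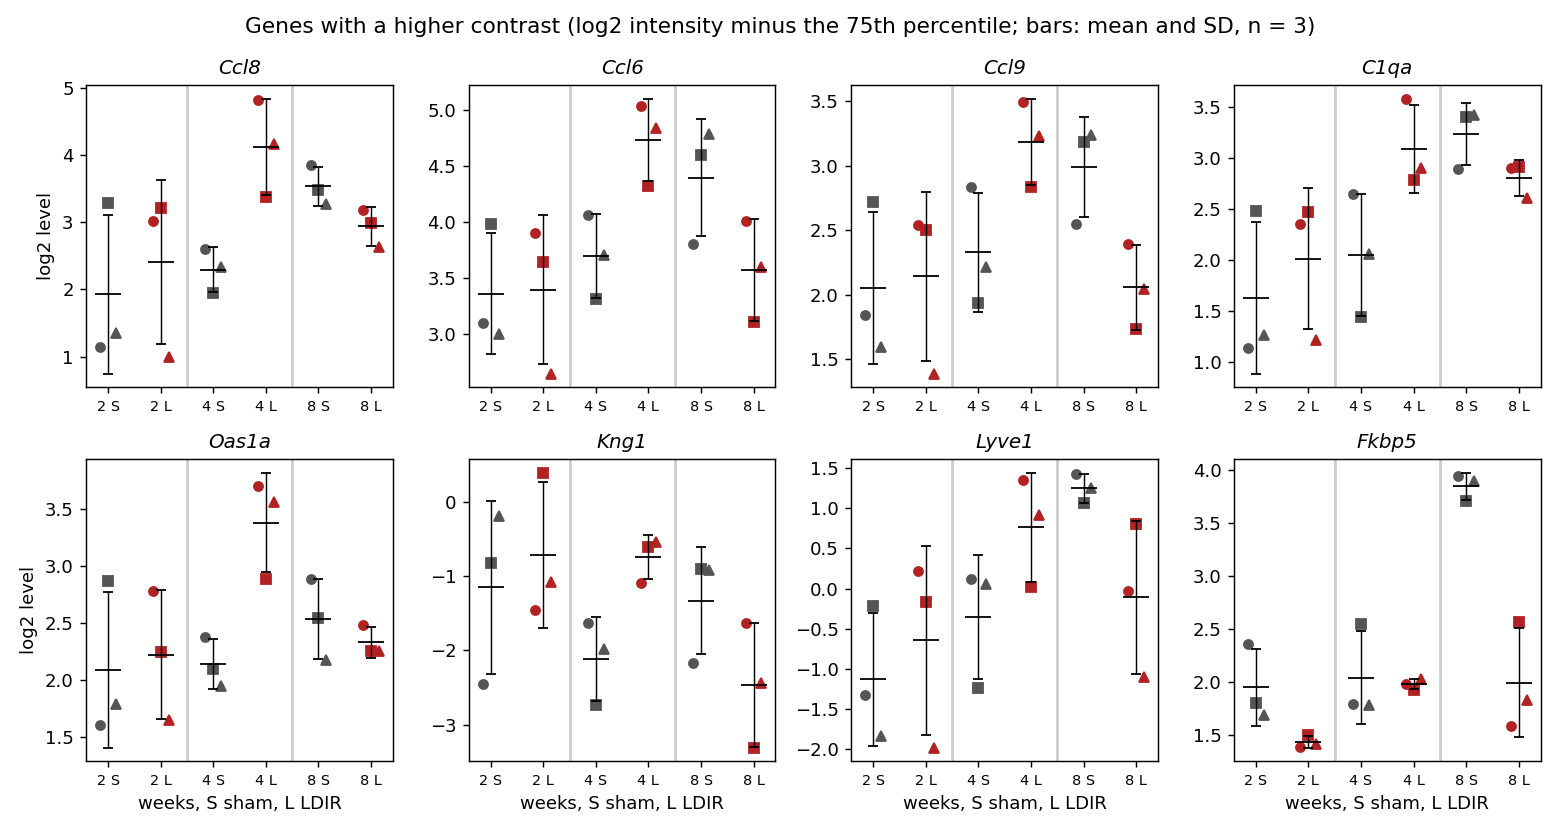
Levels (log2 intensity relative to the 75th percentile of the array) of 8 genes with a higher contrast on the 18 BALB/c arrays at 2, 4 and 8 weeks, sham (S) in grey and LDIR (L) in red; symbols are replicates and bars give mean and SD (n = 3). Ccl8 is higher in LDIR at 4 weeks and lower at 8 weeks, with no overlap at either; Fkbp5 differs from the other groups only in the 8-week sham glands.

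Interferon-stimulated genes, which block viral replication, gave 7 higher and 2 lower of 42 tested (median contrast 0.31), or 16.7% and 4.76% against 2.74% and 0.843% of coding genes. Without the lymphocyte-rich arrays 8 were higher and 2 lower. The higher ones were the oligoadenylate synthetase genes Oas1a, Oas2, Oasl1 and Oasl2, with Ifit3, Irf7 and Rtp4, and the lower ones Cxcl9 and Gbp6. Oas1a was 2.38, 2.10 and 1.95 in sham and 3.69, 2.88 and 3.56 in LDIR at 4 weeks, with no overlap, and 2.88, 2.54 and 2.18 in sham and 2.48, 2.25 and 2.26 in LDIR at 8 weeks, where they overlapped. A second Oas1a probe gave a contrast of 1.47 against 1.44. Ifit3 was carried almost wholly by the LDIR arrays (sham part -0.01, LDIR part 1.43), with a change of 1.09 at 4 weeks and -0.33 at 8 weeks. Over the 42 genes the median change was 0.44 at 4 weeks and 0.10 at 8 weeks. Xaf1, an interferon-induced apoptosis factor, had a contrast of 0.27 by its brightest probe and 3.95 by another, which disagree.

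The interferon-stimulated response element was searched as GAAA, any 2 bases and GAAA again, on both strands. It is in capitals in the upstream 250 bases of Ifit3 and Oas1a, shown because these were the higher-contrast members in which it was found (RefSeq, GRCm38.p6; chr19:34583279-34583528, plus strand, and chr5:120907526-120907775, minus strand). In Oas1a the 2 overlapping matches fuse into 1 run. Of the 7 higher members 5 had a promoter in the table and 2 of these held the letters, against 12 of the 24 found for members that did not pass and 2.98% of all 32851 promoters.
Ifit3: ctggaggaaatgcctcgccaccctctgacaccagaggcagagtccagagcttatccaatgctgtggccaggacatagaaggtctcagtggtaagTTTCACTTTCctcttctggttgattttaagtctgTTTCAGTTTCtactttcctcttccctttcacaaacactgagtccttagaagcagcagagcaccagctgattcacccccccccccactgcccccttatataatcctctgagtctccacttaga
Oas1a: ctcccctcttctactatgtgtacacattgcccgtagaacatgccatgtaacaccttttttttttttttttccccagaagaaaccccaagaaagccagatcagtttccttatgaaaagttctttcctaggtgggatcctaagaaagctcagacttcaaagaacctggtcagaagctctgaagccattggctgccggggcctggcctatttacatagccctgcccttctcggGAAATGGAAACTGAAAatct

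Steroid hormone genes did not move as a group. Of 20 tested hormone response genes 1 was higher, Greb1, and 1 lower, Cited1, with a median of 0.05. Each was 5% of the list, against 2.74% higher and 0.843% lower of coding genes. Without the lymphocyte-rich arrays 1 was higher and 2 lower. Greb1, an estrogen-induced coactivator of the estrogen receptor, was -0.14, -0.36 and -0.11 in sham and 0.64, -0.16 and 0.64 in LDIR at 4 weeks, and 0.23, -0.01 and 0.03 in sham and -0.24, -0.64 and -0.41 in LDIR at 8 weeks, so the groups were apart at 8 weeks (contrast 1.09, SE 0.32; 2.66 by a second probe). The progesterone receptor Pgr had a contrast of 0.93 by its brightest probe, which did not pass, and of 1.53 and 1.81 by 2 others, which did. Areg (1.28, SE 0.97), the growth factor of ductal elongation, and Wnt4 (0.61) did not pass, and Prl was not among the tested probes. Cited1, a coregulator of estrogen signalling in the gland, was lower (-2.28, SE 0.98) with overlapping groups at both times.

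Fkbp5, a glucocorticoid-induced chaperone of the steroid receptor complex, did not turn but was sham-carried. It was 1.79, 2.55 and 1.79 in sham and 1.98, 1.93 and 2.03 in LDIR at 4 weeks, and 3.94, 3.71 and 3.90 in sham and 1.59, 2.57 and 1.83 in LDIR at 8 weeks. The 8-week sham glands alone were high and did not overlap the LDIR glands, giving a contrast of 1.79 (SE 0.38) and a sham share of 1.01. Zbtb16, another glucocorticoid target, also passed (1.62), as the sole other one of 27 tested genes of that list. Together they were 7.41% of the list, against 2.74% higher of coding genes. Without the lymphocyte-rich arrays 3 of the 27 were higher and 2 lower. Of clock genes, 1 of 19 passed, the repressor Bhlhe40 (-1.53), or 5.26% against 0.843% lower of coding genes. Without those arrays 4 clock genes were lower.

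Targets of GATA3 and STAT6, transcription factors of luminal and type 2 immune cells, form a list that the study chose on these samples and that is not independent evidence of its direction. Of 10 tested, 5 were higher (Serpinb6a, Fcgr2b, Fcgr1, Il22 and Fcer1g) and 1 lower (Cish), beside 2.74% and 0.843% of all coding genes, with a median of 0.98, and 3 of the 5 are Fc receptor genes that also stand on the macrophage list. Without the lymphocyte-rich arrays 6 were higher and 1 lower. Gata3 (contrast -0.06) and Stat6 (0.03) themselves had contrasts near 0 (SE 0.68 and 0.33).

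The other coding genes with the highest contrasts included Sprr1a, a protein of the cornified envelope (3.56, SE 1.37), and Esrrb, an orphan estrogen-related receptor (3.15, SE 1.09). Sprr1a was -2.77, -2.60 and -2.65 in sham and 0.26, -3.09 and 1.42 in LDIR at 4 weeks, with LDIR B below every sham array, and -1.76, -0.76 and -3.49 in sham and -3.50, -2.80 and -3.78 in LDIR at 8 weeks. Its change was 2.20 at 4 weeks and -1.36 at 8 weeks. Esrrb was 0.18, 1.91 and 0.10 in the 8-week sham glands against -2.52, -1.08 and -2.07 in the 4-week ones, and so mainly sham-carried (share 0.83). Kng1, the kininogen that yields bradykinin (2.51), Lyve1, the hyaluronan receptor of lymphatic vessels (2.48), and Folh1, a folate hydrolase (2.32), were also up at 4 weeks and down at 8 weeks. The Cyp3a genes Cyp3a25 (2.58), Cyp3a57 (2.52) and Cyp3a59 (2.45), drug-metabolizing cytochromes of closely related sequence, had like values on each array, and their probes may share signal. The highest contrast of all probes was 5.88 (SE 1.38), by a dim probe of Sprr2a2 picked out after its value was seen; the bright probe of Sprr2a2 gave -0.13.

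Other cell types differed between arrays as well. For skeletal muscle, the mean level of its 17 genes was 0.07, -1.97 and -1.87 in sham and -1.96, -1.74 and -1.79 in LDIR at 4 weeks, and 2.34, 0.29 and 1.63 in sham and 1.83, -1.60 and 3.54 in LDIR at 8 weeks. No muscle gene passed, with a median contrast of -0.59, but without the 2 lymphocyte-rich arrays 9 of 17 were lower (median -2.35). Brown and beige fat genes had a median of -0.82, 13 of 16 negative, with the carnitine carrier Slc25a20 past the thresholds (-1.62), and 6 lower without both arrays. White adipocyte genes (median -0.35) gave Npr3, the natriuretic clearance receptor, higher (2.17) and the beta-3 adrenergic receptor Adrb3 lower (-1.33, and -1.07 by a second probe that did not pass), with 2 higher and 5 lower without both arrays. Endothelial genes gave Lyve1 higher and Cldn5 (-1.31) and Egfl7 (-0.70), which act in vessel junctions and growth, lower. In luminal epithelium Ly6a was higher (0.93) and the transcription factor Elf3 lower (-1.62), with 1 higher and 3 lower without both arrays. No basal gene passed, and 2 were lower without both. Whether differing muscle or fat content moved the immediate early or macrophage lists was not tested.

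No member passed among 41 cell cycle genes, although 38 of 41 were positive (median 0.68, sham part 1.62 and LDIR part -1.06), nor among 34 collagen and matrix genes (32 positive, median 0.45). The respiratory chain (38 of 39 negative, median -0.26), beta oxidation and TCA cycle (29 of 30 negative, median -0.35), ribosomal proteins (median -0.06), 34 double-strand break repair genes (median 0.08), T and NK lymphocytes (-0.34), B lymphocytes (0.28) and MHC class II (0.44) also had 0 members past the thresholds. Without the lymphocyte-rich arrays, 6 collagen and matrix genes were higher (median 0.58), 3 beta oxidation and TCA cycle genes were lower (median -0.46), and 1 gene each was lower among the repair, T and NK and B lymphocyte lists. With slide as a fixed block the median of the collagens turned to -0.31. That fit rests on 1 sham array at 4 weeks and 1 LDIR array at 8 weeks, and its medians for the other lists here are not given. Genes in such lists share their arrays, so counts of one sign are not counts of independent changes. The chaperone Sdf2l1 (1.23) was the only member past the thresholds in its list of 40, of which 2 were higher without the lymphocyte-rich arrays.

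**Figure D5:**
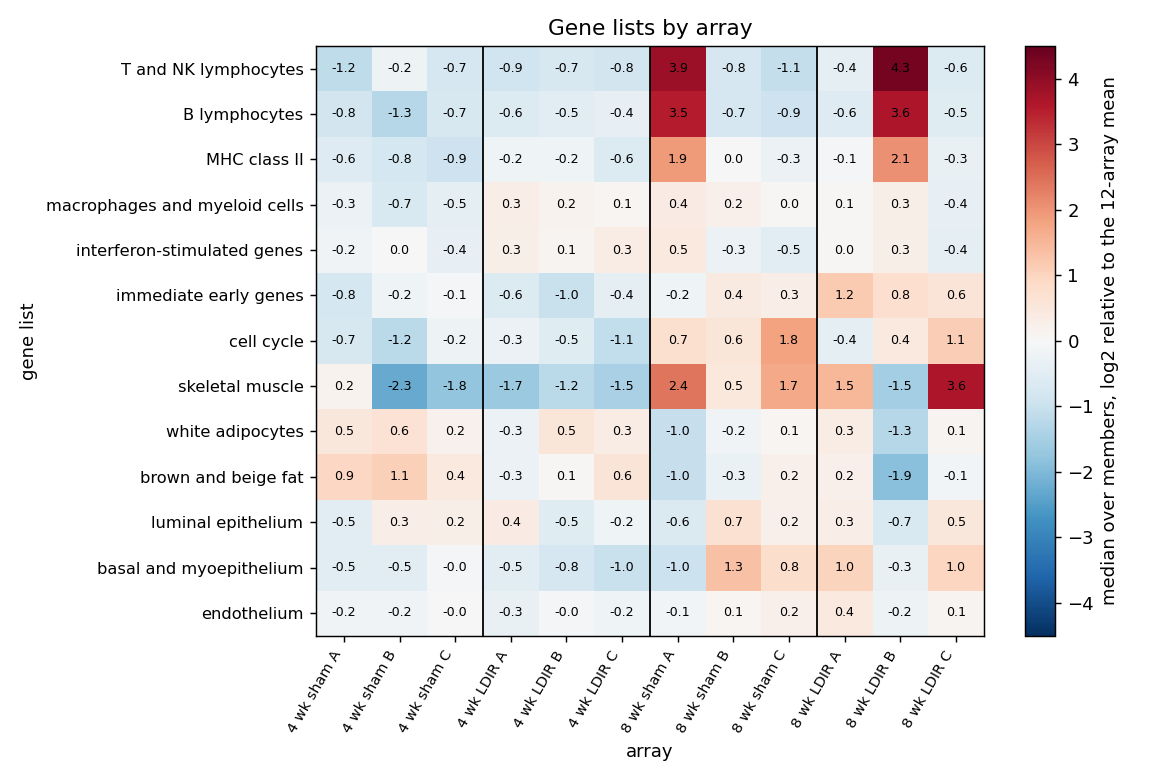
Median level of each gene list (rows) on each of the 12 arrays (columns), in log2 relative to the mean of the 12 arrays, red higher and blue lower, with lines between the 4 groups. The T and NK lymphocyte row reads 3.86 on 8-week sham A and 4.30 on 8-week LDIR B, the macrophage row is higher in LDIR than sham on every 4-week array, and the immediate early row is highest on the 8-week LDIR arrays.

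The lncRNA probes with the strongest turns came from a few loci, and their 60-base probes are shown because the arrays name them by position only. The highest contrasts were from 2 probes of chr1:175654606-175672031 (plus strand, mm9), 2.16 and 2.08, and from 1 probe of chr1:84947500-85045150 (2.02, SE 0.37, apart at both times). The lowest were 2 probes of chr19:5834117-5835940 (minus strand), -1.88 and -1.84, and 1 of chr14:78924115-78938125 (-1.64). In these lines the name is followed by the probe.
Chromosome 1 first probe: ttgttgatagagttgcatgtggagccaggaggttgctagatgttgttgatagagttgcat
Chromosome 1 second probe: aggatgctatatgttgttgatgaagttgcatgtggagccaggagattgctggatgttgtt
Chromosome 1 other locus: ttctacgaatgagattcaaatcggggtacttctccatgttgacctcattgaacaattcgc
Chromosome 19 first probe: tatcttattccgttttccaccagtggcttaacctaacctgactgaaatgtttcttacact
Chromosome 19 second probe: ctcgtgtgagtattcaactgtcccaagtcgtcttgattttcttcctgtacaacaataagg
Chromosome 14: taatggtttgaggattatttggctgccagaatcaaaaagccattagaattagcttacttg

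The pair of probes of the chr1:175654606-175672031 locus share a run of 21 bases, agttgcatgtggagccaggag, so they do not measure it independently. The first probe was -4.11, -5.28 and -3.79 in sham and -2.84, -2.86 and -3.13 in LDIR at 4 weeks, and -3.02, -3.64 and -2.99 in sham and -2.97, -4.28 and -4.55 in LDIR at 8 weeks, all of them dim. On chromosome 19 the 2 probes adjoin each other and lie 7871 bases or more from the nearest NEAT1 probe, on the same strand. Whether they read the same transcript as the NEAT1 probes was not tested. The first of the chr19:5834117-5835940 probes was 1.40, 1.51 and 1.68 in sham and 0.51, -0.19 and 0.83 in LDIR at 4 weeks, and -0.44, -0.32 and 0.41 in sham and 1.17, -0.39 and 1.09 in LDIR at 8 weeks. LDIR lay below sham at 4 weeks without overlap, and the sham arrays carried most of the contrast (share 0.87). A further probe of that locus gave -1.42 and did not pass, and the 5 NEAT1 probes of the array had contrasts of 0.25 to 0.42, none past the thresholds. The 3 NEAT2 (Malat1) probes were lower, at -0.98, -0.85 and -0.76, and a coding-set Malat1 probe at -0.69 did not pass. At the chromosome 14 locus 3 other probes of chr14:78924115-78938125 on the same strand were also lower (-0.83, -1.05 and -1.47), and a further one at -0.31 did not pass. A probe of another minus-strand lncRNA within that span, at chr14:78937101-78937160, passed as higher (1.33).

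The turn was then read on arrays that the contrast did not use. At 2 weeks, 1.2% of tested probes were higher after LDIR past the same thresholds and 0.37% lower. Of the 1064 higher-contrast probes, 22 (2.07%) were higher and 2 lower, and of the 267 lower-contrast probes 2 were higher and 1 lower, and the adjusted p of each of these 27 at 2 weeks was 0.775 (limma). The 22 included the eosinophil chemokine receptor Ccr3 (0.84, SE 0.20), picked out after its value was seen. None of the genes or lncRNA probes named by rule passed at 2 weeks. Their 2-week changes included 0.12 for Fosb and 0.05 for Atf3, while Fgb (-0.76) and Fgg (-1.41) were negative, with wide spread between arrays. Ccl8 changed by 0.48 and C1qa by 0.39 at 2 weeks, near in size to their 8-week changes of -0.60 and -0.43 and opposite in sign. Fosb read -2.12, -2.03 and -1.14 in sham and -1.84, -1.44 and -1.62 in LDIR at 2 weeks, close to the 4-week LDIR level. All 2-week arrays lay on slide 1.

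In SPRET/EiJ, the other strain studied, at 4 weeks after the same dose 0.556% of tested probes were higher and 0.327% lower. Of the higher-contrast probes 12 (1.13%) were higher and 3 lower, and of the lower-contrast probes 1 was higher and 2 lower, and none of the named genes passed. Ccl8 was 3.5, 3.73 and 3.88 in sham and 2.00, 3.58 and 4.41 in LDIR SPRET/EiJ glands, overlapping fully, with a change of -0.38. Cyp3a25 levels were -7.81 to -6.38 there. Whether probes designed on the reference genome bind the RNA of this strain less well was not tested. One of the LDIR SPRET/EiJ arrays was also rich in lymphocyte RNA (T and NK mean level 2.07 against -2.77 to -2.40 in the sham glands).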

How the data were processed

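RNA of whole mammary glands was hybridized in one colour (Cy3) to 24 Agilent SurePrint G3 Mouse arrays and read by Feature Extraction 10.10.1.1, per the labels and file headers. The deposited scanner files give each spot's intensity, background-subtracted by that software. A table of log2 values deposited by the authors was normalized to the 75th percentile in GeneSpring and is centred for each probe, so it gives no levels; it served as an alternative. Here intensities were taken as log2 minus the 75th percentile of each array, outlier spots were left out and spots of a probe averaged. Depth was set by the number of arrays (3 in each group).

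The contrast was fitted with limma 3.58.1 in R 4.3.3 (lmFit and eBayes, two-sided, Benjamini-Hochberg over all tested probes), and the code was tested on simulated data. The thresholds were an unadjusted p under 0.05 and over 1.5-fold. Arrays at 2 weeks and of SPRET/EiJ were fitted apart. A gene was read by its brightest tested probe. The genes named were the 10 highest and 10 lowest turned coding genes, 3 lncRNA probes each way, up to 4 members past the thresholds in each of 34 gene lists, and Pgr, Areg, Prl, Wnt4, Greb1, Gata3, Stat6, Fosb, Atf3, Xaf1 and S100g where tested; further list members are named to account for a count. The genes and lists were chosen with earlier results of these data known. Alternatives were other background corrections, scalings, filters, slide blocks, a replicate block and leaving out arrays. Probe positions are in mm9 and promoters in GRCm38.p6 (RefSeq). Figures were drawn with matplotlib 3.10.9.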

Additional observations from a re-analysis of the deposited data

Results flagged for a closer look

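The following, all named above, were picked out because every LDIR array lay on one side of every sham array at 4 weeks and on the other side at 8 weeks. They are some of the 107 tested probes that lay apart in this way. Of all tested probes, 0.244% did so up at 4 weeks and down at 8 weeks, and 0.0864% in the reverse direction. The difference between both times was not tested apart from the ranking that chose these genes. The contrast was 2.43 for Ccl8, a chemokine, -5.32 for Fgb and -4.66 for Fgg, the fibrinogen chains, 2.13 for Il1r2, the decoy interleukin 1 receptor, -1.34 for Plk3, a stress kinase, and -5.32 for Upk3a, a uroplakin. The lncRNA probe of chr1:84947500-85045150 had a contrast of 2.02.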

How the results depend on the processing

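The 1064 higher contrasts became 392 with normexp background correction, 520 with quantile normalization, 2135 with all probes, 235 with slide as a fixed block, 275 on slide 2 alone, and 500 (without 4-week sham B) to 2308 (without 4-week sham C) when 1 array was left out. The 267 lower ones became 557 with quantile normalization, 1201 without both lymphocyte-rich arrays (an alternative chosen after seeing the data), and 159 (without 4-week sham B) to 1008 (without 8-week LDIR B) with 1 array left out. The count at an adjusted p under 0.05 was 1 with slide as a fixed block and 0 to 1 with 1 array left out, namely Peg13 (an imprinted noncoding RNA, contrast 5.73 with the slide block and 1.38 without it, adjusted p = 0.00764 in limma) and the dimmer Xaf1 probe (5.63 without 4-week LDIR B against 3.95, adjusted p = 0.0227 in limma), both named after their values were seen. Turned probes (1295) numbered 596 with normexp, 2288 with all probes, 433 with the slide block, 570 on slide 2, 2154 without both arrays, and 640 to 2513 with 1 array left out.

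Probes past the thresholds at 4 weeks (833) numbered 356 with normexp, 1383 with all probes, 269 with the slide block, 327 on slide 2, 1458 without both arrays, and 436 to 2309 with 1 left out. At 8 weeks (406) they numbered 149, 1935, 646, 750 and 1028 in the same order, 251 in a plain linear model, and 368 to 1178 with 1 left out. List members past the thresholds (62) were 136 without both arrays and 47 to 119 with 1 left out. The sham share of higher contrasts (0.31) was 0.48 with quantile normalization, 0.41 with all probes, 0.69 with the slide block, 0.68 on slide 2, 0.53 without both arrays, and 0.13 (without 8-week LDIR A) to 0.49 with 1 left out. That of lower contrasts (0.77) was 0.46 with the slide block, 0.53 on slide 2, 0.94 without both arrays, and 0.46 to 0.92 with 1 left out. At 2 weeks, the 22 higher and 2 lower of the higher-contrast probes became 12 and 5 with quantile normalization, and 21 to 39 and 2 to 15 with 1 array left out. In SPRET/EiJ, the 12 and 3 became 8 to 21 and 3 to 14. The cause of these shifts was not tested.

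Replicate letters were not used to pair the samples, and what they mark is not given in the sources used here. Deviations of same-lettered arrays correlated at -0.01, 0.13 and -0.01 at 4 weeks and at -0.55, -0.56 and 0.55 at 8 weeks. The lymphocyte-rich 8-week arrays, sham A and LDIR B, bear different letters and correlated at 0.72, so the 8-week values cannot show whether letters pair the samples. With the replicate block, 1014 contrasts were higher, 220 lower, 1196 turned and 0 passed the adjusted threshold. Of the named genes past the thresholds, 33 higher and 21 lower, 8 and 16 also passed with the slide block, and 32 and 20 without both lymphocyte-rich arrays. No named contrast past the thresholds changed sign under any setting run.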
